A study of Drosophila melanogaster with 3 samples.

Results

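The larval serum proteins and fat body proteins of Drosophila melanogaster were followed through 8 genes, Lsp1alpha, Lsp1beta, Lsp1gamma, Lsp2, Fbp1, Fbp2, Rfabg and Mtp. Each was found as a row of the deposited expression table that carried its name alone, so that 8 of 8 were measured, out of 13358 named genes in all. RNA came from brains dissected from larvae of the last instar, and total RNA freed of ribosomal RNA was sequenced in 1 library for each of 3 genotypes. Control, as labelled, stands for animals with 1 mutant copy of dBRWD3 (dBRWD3PX2/+). The single mutant library came from animals with the PX2 allele on both chromosomes (dBRWD3PX2/PX2). The double mutant library came from animals that carried dBRWD3PX2/PX2 together with the yem insertion on both chromosomes (yemGS21861/GS21861). All groups thus carried at least 1 PX2 chromosome, and no library came from animals without it. Larval sex and the number of pooled brains are not stated in the labels.

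The larval fat body, an organ with the roles of liver and adipose tissue, secretes storage proteins into the haemolymph during the last larval instar. LSP1 and LSP2 are hexamerins, large proteins of 6 subunits, which are taken back up by the fat body near pupariation and serve as a store of amino acids for metamorphosis. Steroid hormone signalling by ecdysone is known to control several of these genes in the fat body. Lipids travel in the same haemolymph on lipophorin particles, which the fat body makes and which reach the larval brain. These proteins are not known as products of neurons, and in bulk RNA of a dissected tissue fewer cells of a type and less RNA per cell cannot be told apart.

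Values are RPKM, reads scaled to transcript length and library size, as deposited, and positions are those of the table in build dm3. Ratios are log2 of the quotient of 2 RPKM values after 1 RPKM was added to each, with a call of higher or lower made at 2-fold. All 8 members passed the filter of 1 RPKM in any library, which left 9693 genes. With 1 library per genotype replicate error is unknown, no test was run, and each statement compares these libraries. BRWD3 itself had 29.1, 43.2 and 47.8 RPKM in control, single and double mutant and yem (listed as yemalpha) 11.9, 8.04 and 15.6 RPKM, so RNA levels do not check the labels. RPKM values hold no read numbers. The most frequent low product of RPKM and transcript length in kb was taken as an approximation of 1 read. It fell at 0.03 to 0.04 for control and double mutant and at 0.04 to 0.05, the neighbouring bin, for the single mutant. The libraries then held about 2.9e+07 (control), 2.2e+07 (single mutant) and 2.9e+07 (double mutant) reads, which differ by no more than that bin. The members rested on about 770 reads (Fbp2, single mutant) to about 36000 reads (Lsp2, double mutant). If the control column is an average, its estimate does not stand for 1 library.

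The storage protein genes had their lowest values in the single mutant library and their highest in the double mutant library, whereas the lipoprotein genes lay within 2-fold. The order double mutant, control, single mutant held for 7 of the 8 genes, the exception being Rfabg, and for 17.9% of all 9693 genes. With the libraries rescaled to the same summed RPKM over 12 brain marker genes it held for 5 of 8 and for 6.28% of all genes, since Fbp1 and Mtp then stood below control in the double mutant library. Relative to control, the single mutant library had 5 of 8 members at or past 2-fold lower, where 3.6% of all genes were, and 0 of 8 higher, where 2.7% were. Against the single mutant library, 6 of 8 members were at least 2-fold higher in the double mutant library, where 4.27% of all genes were, and 0 were lower, where 1.48% were. Both of these calls together were met by 5 of 8 members and by 2.02% of all genes. In the double mutant library 3 of 8 were at least 2-fold higher than in control, where 3.06% of all genes were, and 0 were lower, where 1.62% were. Scaling to brain markers left 2 of 8 there, Lsp1alpha and Lsp1gamma. The median member ratios on the log2 scale were -1.05 (single mutant over control), 2.05 (double over single mutant) and 0.74 (double mutant over control), and those of all genes were 0.04, 0.04 and 0.07. These 3 comparisons share libraries, so a low single mutant value enters both of the first pair.

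**Figure D1:**
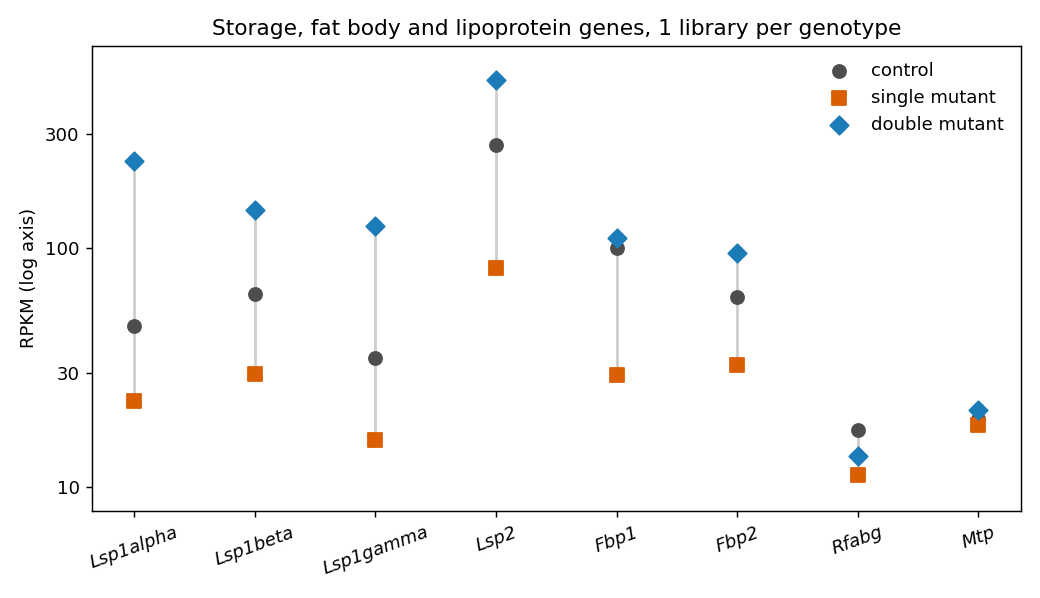
RPKM (log axis) of the 8 genes in the control (circle), single mutant (square) and double mutant (diamond) libraries, 1 library each, with a grey line joining the lowest and highest value of a gene. The single mutant value was the lowest for all 8 genes, and Lsp1alpha had the widest fold range, from 23.0 to 231 RPKM, while Mtp stayed between 18.2 and 21.2 RPKM.

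Lsp1alpha, which encodes the alpha subunit of LSP1 (X, 12384415 to 12386933), had 47.3 RPKM for control, 23.0 for the single mutant and 231 for the double mutant. Its double mutant value was 10.05 times the single mutant value and 4.88 times the control value, the widest separation among the members. Only 16 of the 9693 genes had a higher ratio of double to single mutant, and 24 a higher ratio of double mutant to control. Lsp1alpha is the X-linked LSP1 gene and is known as a gene that escapes dosage compensation, so that its dose differs between the sexes. The male-specific roX1 RNA had 46.2, 63.7 and 66.7 RPKM in control, single and double mutant, and roX2 had 367, 264 and 312 RPKM. The part of larval sex in the Lsp1alpha values was not tested.

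Lsp1beta (2L, 898646 to 901318), which encodes the beta subunit, had 64.3 RPKM for control, 29.9 for the single mutant and 145 for the double mutant. Lsp1gamma (3L, 66438 to 69003), for the gamma subunit, had 34.7, 15.8 and 123 RPKM in the same order. For both genes the single mutant value was the low one and the double mutant value the high one, as for Lsp1alpha. The 3 subunit genes lay close together between the single mutant and control libraries, at 2.06-fold (alpha), 2.15-fold (beta) and 2.19-fold (gamma) lower RPKM. They lay apart between the double mutant and control libraries, at 4.88-fold, 2.25-fold and 3.55-fold higher, and the call for Lsp1beta was lost under scaling to brain markers (log2 ratio 0.76 in place of 1.16). Because their log2 ratios of single mutant to control (-1.01, -1.08 and -1.09) sit just past 2-fold, adding 5 RPKM in place of 1 left 2 of 8 members past it in that comparison, Lsp2 and Fbp1.

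The make-up of the LSP1 messages therefore stood alike in the control and single mutant libraries and differed in the double mutant library. Lsp1alpha made up 32.3% of summed Lsp1 RPKM in control, 33.5% for the single mutant and 46.3% for the double mutant. Lsp1beta made up 43.9%, 43.5% and 29.0%, and Lsp1gamma 23.7%, 23.1% and 24.7%. The leading subunit gene was beta in the control and single mutant libraries and alpha in the double mutant library. The summed level was 146, 68.7 and 499 RPKM. No source used here states how reads matching more than 1 of these related genes were assigned.

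Lsp2 (3L, 12122492 to 12124796), which encodes the subunit of the other larval hexamerin, was the highest member in every library, with 271 RPKM for control, 82.5 for the single mutant and 505 for the double mutant. It exceeded 95.3%, 87.8% and 96.3% of all genes in these libraries. The single mutant value was 3.28-fold below control, and 86 of the 9693 genes had a lower ratio. The double mutant value was 6.12 times the single mutant value but only 1.86 times the control value, within 2-fold. Lsp2 accordingly stood at 1.85 times the summed Lsp1 level for control, 1.20 times for the single mutant and 1.01 times for the double mutant.

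Fbp1 (3L, 14087686 to 14091156) encodes the fat body receptor for LSP1, itself related to the hexamerins. It had 100.5 RPKM for control, 29.5 for the single mutant and 110 for the double mutant, so that the single mutant library stood alone at the low end. The RPKM was 3.41-fold lower in the single mutant than in control, close to the 3.28-fold of Lsp2. Between double mutant and control the log2 ratio was 0.14, with a range of -0.27 to 0.21 over all settings tried, so no direction can be given. The ratio of Lsp2 to Fbp1 was 2.70 for control, 2.80 for the single mutant and 4.57 for the double mutant. The ratio of summed Lsp1 to Fbp1 was 1.46, 2.33 and 4.52. Summed Lsp1 and Fbp1 messages thus changed unequally between these libraries. Lsp2 and Fbp1 changed nearly alike between control and single mutant, and unequally towards the double mutant.

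**Figure D2:**
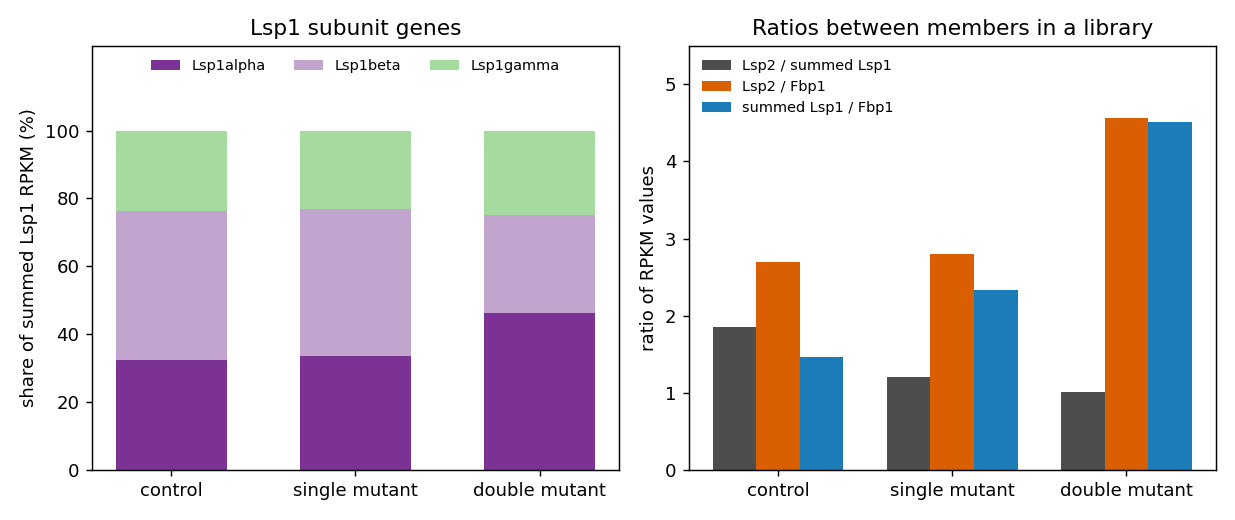
Left, the share of summed Lsp1 RPKM (%) held by each of the 3 subunit genes in each library. Right, ratios of RPKM values within a library, for Lsp2 over summed Lsp1, Lsp2 over Fbp1 and summed Lsp1 over Fbp1. Lsp1alpha held 46.3% in the double mutant library against 32.3% and 33.5% in the others, and both ratios to Fbp1 were highest there (4.57 and 4.52).

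Fbp2 (2L, 9426859 to 9427835), which encodes a fat body protein related to alcohol dehydrogenase, had 62.8 RPKM for control, 32.5 for the single mutant and 95.1 for the double mutant. It stood 1.93-fold lower in the single mutant than in control, just inside 2-fold (log2 ratio -0.93), and was 2.93 times as high in the double mutant. The double mutant value was 1.52 times that of control. Fbp2 thus followed the order of the storage protein genes with smaller ratios. Its level was above that of Fbp1 in the single mutant library alone (Fbp1 over Fbp2 at 1.60 for control, 0.909 for the single mutant and 1.16 for the double mutant).

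Rfabg, now named apolpp (chromosome 4, 1085537 to 1096830), encodes the precursor of the apolipophorins, the protein scaffold of lipophorin. It had 17.4 RPKM for control, 11.2 for the single mutant and 13.5 for the double mutant, and was the lowest member in each. The control value was the highest, and all 3 values lay within 2-fold. Mtp (2L, 20919093 to 20922850), the microsomal triglyceride transfer protein that loads lipid onto apolipophorin, had 19.3, 18.2 and 21.2 RPKM. Its log2 ratios were -0.08 (single mutant over control), 0.20 (double over single mutant) and 0.13 (double mutant over control), near the medians of all genes. The signs of the last pair of Mtp ratios, and that of Rfabg between double and single mutant (0.25), turned under a scaling to brain markers. The ratio of Lsp2 to Rfabg ran from 7.34 in the single mutant through 15.6 for control to 37.3 for the double mutant.

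**Figure D3:**
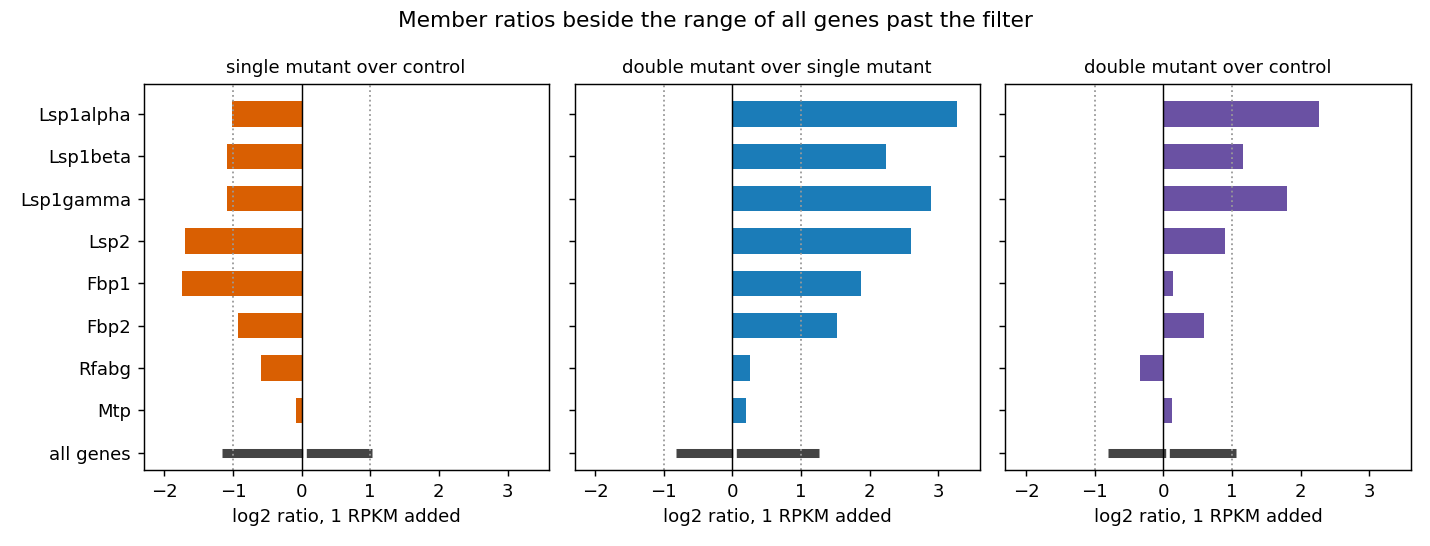
Log2 ratios of the 8 genes (bars) in the 3 comparisons, with 1 RPKM added to each value, and below them the range from the 2.5th to the 97.5th percentile of all 9693 genes (dark bar, white mark at the median). Dotted lines mark 2-fold. Lsp2 and Fbp1 lie below the range in single mutant over control (its lower end is -1.16), and the Lsp genes, Fbp1 and Fbp2 lie above it in double over single mutant (its upper end is 1.26).

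The nearest named genes on both sides of each member, 16 in all, mostly had values under 1 RPKM. Of these 6 reached 1 RPKM in at least 1 library, and 10 did not, among them both neighbours of Lsp1alpha, Lsp1beta, Fbp1 and Fbp2. The gene CG11534 starts 474 bases past the end of Lsp2 (3L, 12125271 to 12129803) and is on the same strand in a later annotation. It had 7.72 RPKM for control, 1.05 for the single mutant and 9.29 for the double mutant, the same order as Lsp2. Whether reads running past Lsp2 were counted there was not tested. On the other side of Lsp2, CG34241 was listed at 0 in all 3 libraries. Before Lsp1gamma, mthl8 had 1.91 RPKM for control and was listed at 0 for both mutants. The neighbours of Rfabg and Mtp all lay within 2-fold in each comparison.

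Genes with the pattern most like that of the storage proteins were looked for among 7391 other named genes that reached 5 RPKM in some library. Likeness was the Euclidean distance to the mean of the 4 Lsp genes over 2 log2 ratios, single mutant over control (mean -1.22) and double over single mutant (mean 2.75), from 3 libraries. The nearest was the eye colour gene w (distance 0.14), which had 6.74 RPKM for control, 2.65 for the single mutant and 23.6 for the double mutant. A copy of w often marks inserted elements, and whether its values come from such a copy was not tested. Next came Pig1 (0.22), CG11300 (0.27), CG13460 (0.34), CG2186 (0.38), Gug (0.39), fon (0.40), CG13560 (0.41), CG14265 (0.51) and Cad86C (0.56). Pig1, CG11300, CG13460, CG13560 and CG14265 reached 5 RPKM in the double mutant library alone. CG13560 had 0.971, 0.110 and 7.05 RPKM, and CG14265 had 0.644, 0 and 6.19 RPKM. Their ratios of single mutant to control lie at the floor and depend on the 1 RPKM added. The haemolymph clotting gene fon had 7.19, 1.72 and 15.5 RPKM. Pig1 and CG14265 share 1 assembled interval on X (3070474 to 3233360). None of the 10 reached the level of the Lsp genes, the highest value among them being 26.1 RPKM for CG2186 in the double mutant library. Fbp1 and Fbp2 lay farther off, at 1.02 and 1.26, and Rfabg and Mtp at 2.58 and 2.79.

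Other genes of the lipoprotein system, like Rfabg and Mtp, lay mostly within 2-fold. Of 18 listed genes for lipoprotein particles, lipid carriers and their receptors, 14 passed the filter. In the single mutant library 1 of these was at least 2-fold higher than in control, the scavenger receptor gene crq (9.97 RPKM for control, 24.5 for the single mutant and 16.0 for the double mutant), and 0 were lower. The other comparisons had 0 of 14 past 2-fold in either direction, and the list medians were 0.15, 0.08 and 0.15. Scaling to brain markers turned the last pair of medians to -0.18 and -0.17 and put 1 of 14 at least 2-fold below the single mutant in the double mutant library. The lipophorin receptor genes, picked for their role after their values were seen, had 14.6, 14.1 and 15.0 RPKM (LpR1) and 7.34, 11.6 and 12.6 RPKM (LpR2). Of 13 measured genes for lipid storage and synthesis 0 passed 2-fold in any comparison with 1 RPKM added, with medians of -0.06, 0.05 and -0.07. The nearest to it was the lipase gene bmm, named after its values were seen, with 6.48 RPKM for control, 3.05 for the single mutant and 3.18 for the double mutant, and scaling to brain markers put 1 of 13 at least 2-fold below control in the double mutant library. Among these ATPCL, the ATP citrate lyase gene, had 90.5, 74.5 and 86.1 RPKM, and the joined row CG8709,kermit, which holds the lipin gene, had 69.8, 55.5 and 57.3 RPKM.

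The prophenoloxidases, enzymes of the melanin pathway in blood cells, share ancestry with the hexamerins. In the double mutant library 2 of their 3 rows were at least 2-fold higher than in the single mutant, where 4.27% of all genes were. Their log2 ratios were 2.27 for CG8193 and 1.98 for proPO-A1. The levels of CG8193 were 72.7 RPKM for control, 43.6 for the single mutant and 214 for the double mutant, and those of proPO-A1 were 119, 92.0 and 365 RPKM. Both had the order of the Lsp genes but stood within 2-fold between single mutant and control. The remaining one, in the joined row CG42640,l(2)k09913, had 155, 200 and 142 RPKM, so that either gene may have given the value.

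Regulators known from fat body or ecdysone control mostly did not share the low single mutant values. Of 20 measured rows, 16 stood above control in the single mutant library, as 54.1% of all genes did, with a median of 0.42. With 1 RPKM added all 16 were within 2-fold, although the joined row CG12912,Hr46, named after its values were seen, went from 0.573 to 2.09 RPKM. Against control, 7 of 20 were at least 2-fold higher in the double mutant library, where 3.06% of all genes were. None of the 20 were lower, where 1.62% of all genes were, and the median was 0.76. Scaling to brain markers left 2 of 20 there, with a median of 0.45. Between double and single mutant, 18 of 20 stood higher in the double mutant library, as 53.8% of all genes did. The median was 0.38, or 0.15 when scaled to brain markers. At least 2-fold higher were 2 of 20, srp and Deaf1, where 4.27% of all genes were, and 0 were lower, where 1.48% were. Brain marker scaling left 1 of 20 past 2-fold. The GATA factor gene srp, known for fat body and blood cell fate, had 2.49 RPKM for control, 4.02 for the single mutant and 10.3 for the double mutant. The ecdysone-induced receptor gene Eip75B had 10.8, 18.6 and 30.1 RPKM. The joined row br,dor, which holds the ecdysone-induced Broad factor gene and the vesicle trafficking gene dor, had 14.0, 19.4 and 32.9 RPKM. Of the 4 rows below control in the single mutant library, Deaf1, a transcription factor gene, had the largest ratio, at 6.74, 3.71 and 12.0 RPKM. The others, named after their values were seen, were EcR (22.9, 17.3 and 30.8 RPKM), gce (7.56, 6.94 and 9.97 RPKM) and ftz-f1 (3.25, 2.77 and 3.45 RPKM). As deposited, all 4 had the order of the Lsp genes.

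A wider list of genes expressed in fat body or found in haemolymph was mixed. Of 34 measured genes, the single mutant library had 2 at least 2-fold below control (3.6% of all genes) and 2 above it (2.7%). The median was -0.11. The double mutant library had 5 above the single mutant (4.27% of all genes) and 2 below it (1.48%). The median was 0.14, or -0.11 when scaled to brain markers. Scaling to genes of at most 10000 RPKM gave 6 above and 0 below (median 0.34). As deposited, the 2 genes above control in the single mutant library were also the 2 below that library in the double mutant library. These were Idgf1 and Fer2LCH, named after their values were seen. Idgf1 had 2.29 RPKM for control, 6.38 for the single mutant and 2.48 for the double mutant. Fer2LCH had 34.95, 73.14 and 34.75 RPKM in the same order. Obp99b, of the odorant-binding protein family, had 320 RPKM for control, 148 for the single mutant and 637 for the double mutant, with log2 ratios of -1.11 (single mutant over control) and 2.10 (double over single mutant) beside -1.08 and 2.24 for Lsp1beta. Pepck, of gluconeogenesis, had 5.91, 1.69 and 6.09 RPKM, which is the shape of Fbp1 with nearly equal control and double mutant values. CG2233 had 2.43, 0.775 and 4.39 RPKM. Nplp2, a neuropeptide-like precursor gene, was highest in the double mutant library, with 16.6, 22.5 and 78.0 RPKM. Tsf1, named after its values were seen, had 66.4, 51.6 and 136 RPKM, the order of the Lsp genes. As deposited, it was at least 2-fold higher in the double mutant library than in the other libraries. Other abundant genes of the list, named after their values were seen, differed in order among themselves. Fdh had 292, 244 and 293 RPKM, the order of the Lsp genes with nearly equal control and double mutant values. Highest in the single mutant library were Obp99a (1262, 1385 and 1263 RPKM) and Obp44a (5567, 6647 and 4317 RPKM).

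**Figure D4:**
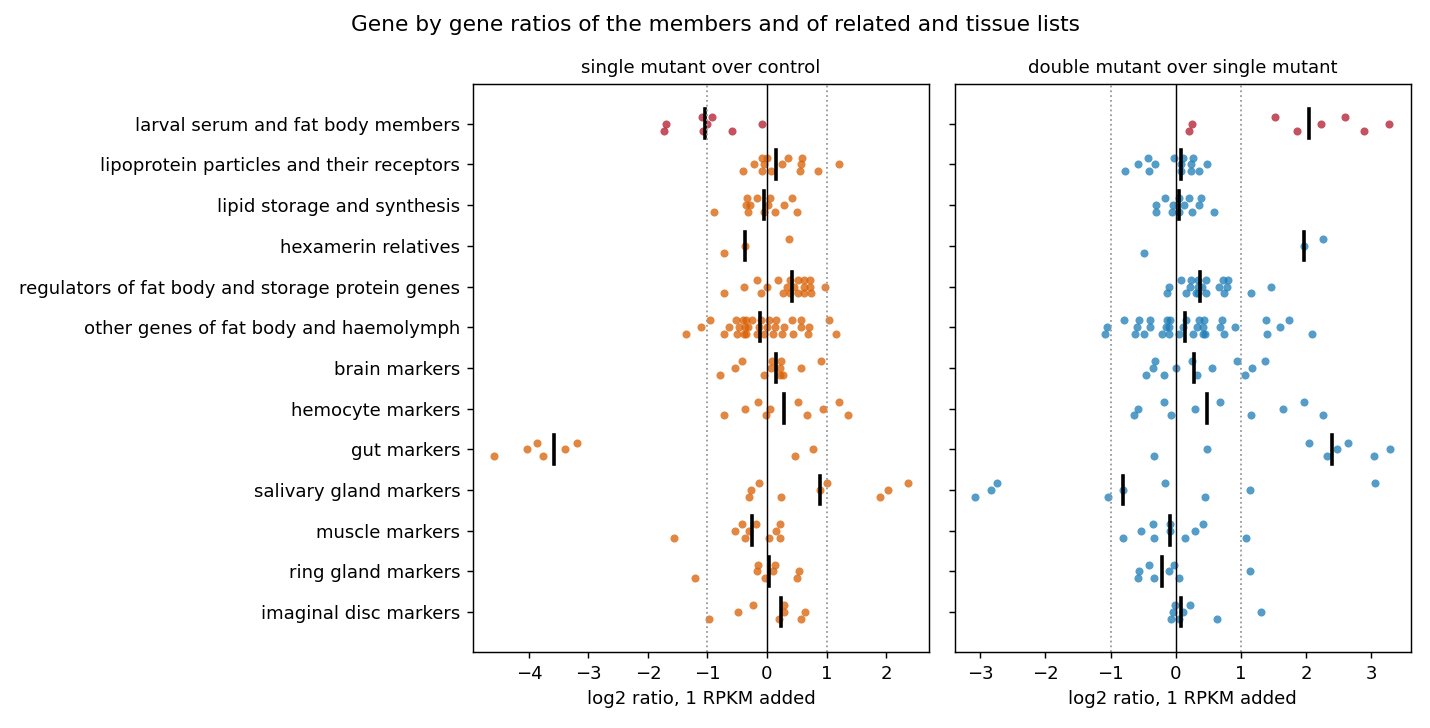
Log2 ratios (1 RPKM added) of single mutant over control and double over single mutant, 1 point per gene past the filter, for the 8 members (red), related lists and lists of tissue markers, with a black line at each median and dotted lines at 2-fold. The members' medians are -1.05 and 2.05. Gut markers have medians of -3.58 and 2.39, and the fat body and haemolymph list has medians of -0.11 and 0.14.

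Markers of brain and of tissues that lie near it in the larva were set beside these values. All 12 brain markers were above 0 in each library, with a summed level of 190 RPKM for control, 207 for the single mutant and 252 for the double mutant. None of the 12 passed 2-fold between single mutant and control, whereas 3 of 12 were at least 2-fold above the single mutant in the double mutant library and 0 below. These were the synaptic gene brp (10.4, 7.48 and 21.0 RPKM), the neural transcription factor gene pros (8.08, 9.99 and 22.1 RPKM) and the glial gene repo (12.4, 6.73 and 16.4 RPKM). Of these brp and repo shared the order of the Lsp genes, as did Syt1 (3.50, 2.09 and 4.92 RPKM), named after its values were seen. The rest of the 12 did not. Among them, also named after their values were seen, were the glial genes nrv2 (30.9, 33.0 and 39.3 RPKM) and alrm (listed as CG11910, at 31.2, 30.2 and 23.5 RPKM). Most gut markers moved with the members in both steps, and the sums over the list were 114, 4.30 and 47.5 RPKM. In the single mutant library 6 of 8 stood at least 2-fold below control. In the double mutant library 6 of 8 stood at least 2-fold above the single mutant. The other 2, named after their values were seen, stood above control in the single mutant library. These were Amy-p (0.135, 0.945 and 1.73 RPKM) and Mal-A1 (listed as LvpH, at 0.709, 1.36 and 0.866 RPKM). The serine protease gene Jon65Aiii had 29.9, 0.280 and 9.57 RPKM and the trypsin gene deltaTry 25.1, 0.589 and 8.96 RPKM. Other trypsin genes, merged as CG30025,alphaTry,gammaTry, had 24.5, 0.872 and 9.37 RPKM. The lysozyme gene LysS had 13.6 RPKM for control and 8.77 for the double mutant, and its single mutant value was listed as 0. Unlike the Lsp genes, 5 of 8 gut markers were at least 2-fold lower in the double mutant than in control. In the same comparison 1 of 8, Amy-p, was at least 2-fold higher. Hemocyte markers, which include the prophenoloxidases and srp, had sums of 377, 442 and 1032 RPKM, with 7 of 10 at least 2-fold above control in the double mutant library (4 of 10 when scaled to brain markers) and 0 of 10 at least 2-fold below control in the single mutant library. The hemolectin gene Hml had 29.9, 29.4 and 94.1 RPKM. At least 2-fold above control in the single mutant library were 2 of 10, He (15.1, 40.4 and 38.6 RPKM) and crq. NimC1 was lowest in the double mutant library (7.94, 7.02 and 4.15 RPKM). He and NimC1 were named after their values were seen. Salivary gland markers had sums of 164, 645 and 108 RPKM. Of 9 that passed the filter, 4 stood at least 2-fold above control in the single mutant library and 0 below, and 2 of 9 stood above and 4 of 9 below the single mutant in the double mutant library. The glue genes Sgs5 (24.0, 129 and 17.2 RPKM), Sgs7 (84.0, 317 and 46.7 RPKM) and Sgs8 (44.3, 184 and 21.0 RPKM) made up most of the sums and were highest in the single mutant library. In contrast, ng3 had 0.934, 0.604 and 12.4 RPKM, the order of the Lsp genes, in the same assembled interval on X as Pig1. Sums were 128, 104 and 120 RPKM for 10 muscle markers, 596, 593 and 505 for 8 ring gland markers and 47.0, 48.9 and 58.8 for 10 imaginal disc markers. Single genes of these lists were low in the single mutant library, namely the muscle actin gene Act57B (9.43, 2.53 and 6.43 RPKM), the ecdysone synthesis gene nvd (5.83, 1.95 and 5.53 RPKM) and the wing gene nub (4.77, 1.94 and 6.30 RPKM). The myosin gene Mhc fell outside this shape, with 7.99, 5.93 and 2.96 RPKM. The part of these tissues in the values of the members was not tested.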

How the data were processed

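The authors deposited 1 table of RPKM values, in which each assembled locus has its position, the names of its genes and 1 column per genotype. Build dm3, Cufflinks 2.0.2, TopHat2 2.0.9, Trimmomatic and FastQC are listed in the submitters' processing notes. No source used here states their settings or the handling of strand. Of 15229 rows, 1769 without a gene name and 1 with a missing value were left out, and of rows sharing a name the one with the highest mean was kept. Rows that join several genes were kept under their joined name.

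Ratios were computed in Python 3.11.15 with pandas 2.3.3. The code recovered changes planted in the control values, which were far past 2-fold and held no noise. That check does not bear on calls near 2-fold. Depth is unknown beyond the approximation given. In the control column, 51.0% of all values above 0 have more than 6 digits. Of these 98.4% end in 5, as an average of 2 values would. Among the 8 members 6 have both traits, and no mutant value in the whole table has more than 6 digits. Whether control is an average is not stated.

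The members and lists were chosen with earlier results of these data known. From each list, up to 4 genes past 2-fold with the largest ratio are named, or the highest expressed where none is. Older symbols were matched through a RefSeq gene table. No sequences were used here.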

Additional observations from a re-analysis of the deposited data

How the results depend on the processing

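Counts and ratios were recomputed under 11 alternatives (pseudocounts of 0.1 and 5 RPKM, no filter or one of 5 RPKM, 4 scalings, and 3 ways of treating rows), of which scaling to genes of at most 10000 RPKM was chosen after seeing the data. With 5 RPKM added, 2 members in place of 5 stood at least 2-fold below control in the single mutant library. All other member counts stayed within 1.5 times. Of 24 member ratios 20 kept their sign throughout. The other 4, Fbp1 and Mtp in double mutant over control and Mtp and Rfabg in double over single mutant, never reached 2-fold. Scaling to brain markers moved the median of all genes in double mutant over control from 0.07 to -0.30 and took the call from Lsp1beta there (0.76), so that 2 members in place of 3 passed 2-fold. Scaling to genes of at most 10000 RPKM moved the median of double over single mutant from 0.04 to 0.23. Under either of these scalings Fbp2 passed 2-fold in single mutant over control (-1.05 and -1.06). No paired analysis was possible because each genotype has 1 library.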
